A study of Mus musculus with 8 samples.

Results

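The genes examined were 9 that encode MLL, partners to which MLL is joined in leukemia, and the cofactors through which MLL and its fusions act on transcription, namely *Kmt2a*, *Mllt3*, *Mllt1*, *Aff1*, *Aff4*, *Dot1l*, *Men1*, *Psip1* and *Cdk9*. They were taken by their GENCODE M21 symbols from the 54838 Ensembl genes in the count files, and each symbol matched 1 gene. All 9 were counted in every library and passed the filter on low counts. The libraries came from 8 samples of *iMLL-AF9* cells, labelled as leukemic stem cells of mouse bone marrow with the genotype WT. Of these samples 4 were treated with DMSO, the solvent that serves as vehicle, and 4 with IOX5, an inhibitor of the HIF prolyl hydroxylases (PHDs). All 8 carry the *iMLL-AF9* allele, which expresses the fusion oncogene when doxycycline is given, on a C57BL/6 background, and the replicates are numbered 1 to 4 in each group. The sources do not give the dose or time of treatment of these samples or what the numbers stand for, so that p-values measure the spread between these samples, which may be technical.

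MLL, encoded by *Kmt2a*, is a histone methyltransferase that marks H3K4 at promoters, and it is tethered to chromatin by menin and LEDGF, the products of *Men1* and *Psip1*. In MLL-rearranged leukemia its amino-terminal part is joined to a partner such as AF9 (*Mllt3*), ENL (*Mllt1*) or AF4 (*Aff1*). These partners belong to the super elongation complex, in which AFF4 is a scaffold and CDK9, the kinase of P-TEFb, releases paused RNA polymerase II, and AF9 and ENL also bind DOT1L, the H3K79 methyltransferase. PHD inhibition stabilizes HIF-α, which binds DNA at a core of the letters ACGTG or GCGTG.

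The sequences before the start sites of 4 of these genes are shown because they differ in how many HIF cores they hold. They are from RefSeq on GRCm38.p6, cover the 250 bases before the annotated start, and are written 5′ to 3′ on the strand of the gene, with capitals for the letters ACGTG or GCGTG on either strand, overlapping matches included. The *Dot1l* sequence lies at chr10:80754953-80755202 on the plus strand, the *Aff4* sequence at chr11:53350517-53350766 on the plus strand, the *Kmt2a* sequence at chr9:44881290-44881539 on the minus strand and the upstream *Mllt3* sequence at chr4:88033408-88033657 on the minus strand.
Dot1l: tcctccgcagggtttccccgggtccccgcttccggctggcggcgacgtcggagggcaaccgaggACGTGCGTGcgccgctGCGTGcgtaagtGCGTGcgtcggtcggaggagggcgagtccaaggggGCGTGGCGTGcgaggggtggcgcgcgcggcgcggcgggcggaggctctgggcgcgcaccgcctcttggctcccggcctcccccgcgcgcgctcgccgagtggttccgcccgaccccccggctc
Aff4: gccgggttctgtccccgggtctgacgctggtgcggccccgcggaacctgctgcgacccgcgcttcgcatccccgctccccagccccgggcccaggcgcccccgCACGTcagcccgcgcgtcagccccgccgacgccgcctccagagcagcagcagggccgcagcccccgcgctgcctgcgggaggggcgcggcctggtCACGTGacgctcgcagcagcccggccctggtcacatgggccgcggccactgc
Kmt2a: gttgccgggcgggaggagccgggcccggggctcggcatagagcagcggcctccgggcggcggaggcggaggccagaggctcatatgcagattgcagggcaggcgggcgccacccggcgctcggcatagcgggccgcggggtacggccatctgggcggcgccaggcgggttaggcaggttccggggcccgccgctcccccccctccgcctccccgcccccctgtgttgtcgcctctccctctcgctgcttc
Mllt3: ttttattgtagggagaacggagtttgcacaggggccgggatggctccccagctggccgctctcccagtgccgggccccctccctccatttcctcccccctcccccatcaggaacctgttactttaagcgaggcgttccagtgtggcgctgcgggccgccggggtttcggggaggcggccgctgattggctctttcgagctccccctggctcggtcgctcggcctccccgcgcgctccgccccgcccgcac
The *Dot1l* promoter held 6 matches, and 0.417% of 32851 mouse promoters of the same length held at least 6. The *Aff4* promoter held 3, as did 6.58% of promoters or more, and 2 of these are the same letters read on both strands of CACGTG, a sequence present in 6.02% of promoters. *Kmt2a*, *Aff1* and *Cdk9* had no match, *Mllt1* and *Men1* had 1, and *Mllt3* had none before its upstream start and 1 before its downstream start, while 38.6% of all promoters had at least 1. The *Aff1* sequences, at chr5:103753912-103754161 and chr5:103754323-103754572, lie inside the gene as GENCODE M21 draws it. The sequence before its M21 start at chr5:103692374 was not examined. Promoters were matched for 8 of the 9 genes. G and C made up 78.4% of the *Dot1l*, 79.2% of the *Aff4*, 76.8% of the *Kmt2a* and 69.2% of the upstream *Mllt3* sequence. The median over all promoters was 52.4%, and the shares of promoters above were not matched for this. The matches describe letters and not binding.

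Between 12343770 and 14116054 reads per sample were assigned to genes in the DMSO group and between 11351507 and 12708888 in the IOX5 group. Same-numbered samples deviated together from their group means, with correlations from 0.636 to 0.758 across genes, and the libraries numbered 3 and 4 resembled each other most in both groups. For number 4 the value of 0.636 was below its largest correlation with another number, 0.685. Of 12405 genes tested by edgeR, 96 rose and 155 fell with IOX5 at an adjusted p under 0.05, and with the replicate number as a block 1394 rose and 1170 fell. All 9 leukocyte, myeloid and progenitor markers, among them *Ptprc*, *Kit*, *Mpo* and *Spi1*, were expressed in all 8 libraries. With the block 5 of the 9 were called higher with IOX5 (*Kit*, *Cd34*, *Mpo*, *Itgam* and *Cebpa*), beside 11.2% of tested genes. T cell markers summed to at most 0.162 CPM in any library, and B cell markers to between 3.01 and 8.56 CPM, nearly all of it *Cd79b*, with no read of *Ms4a1*. Of the stromal and endothelial markers *Col1a2* had no read, *Pdgfrb* was at up to 3.95 CPM, and *Pecam1*, which myeloid cells also express, was at 82.6 to 162.9 CPM in DMSO and 130.6 to 217.7 CPM in IOX5 and was called higher with the block. Macrophage markers summed to between 69.4 and 126.8 CPM in DMSO and between 119.8 and 332 CPM in IOX5, and mast cell and basophil markers to between 73.7 and 397.5 CPM in DMSO and between 94.5 and 717.4 CPM in IOX5. Megakaryocyte markers summed to between 16.3 and 64.5 CPM in DMSO and between 38.9 and 117.7 CPM in IOX5. Without the block edgeR called no gene of these 3 lists, with a smallest adjusted p of 0.0663 for *Adgre1*, while DESeq2 called *Adgre1*, *Mrc1* and *Ppbp* higher. With the block edgeR called 2 of 4 macrophage, 4 of 4 mast cell and basophil and 3 of 4 megakaryocyte markers, all higher with IOX5, beside 11.2% of tested genes, and of 5 erythroid markers *Hbb-bs*. The part of such cells in the values below was not tested. In bulk RNA, fewer cells of a type and less RNA per cell cannot be told apart.

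None of the 9 genes passed the test of IOX5 against DMSO without the block. By edgeR's quasi-likelihood test 0 of 9 passed an adjusted p of 0.05, while 2.02% of all tested genes did. At an unadjusted p under 0.05 there was 1, *Dot1l*, beside 20.2% of tested genes, and DESeq2, which called 8.81% of the genes it tested, called 0 of the 9, as did limma's voom with sample weights. Of the 9, 3 had a positive and 6 a negative log2 fold change, beside 6550 and 5855 of all 12405 tested genes. Their median was -0.02, beside 0.02 over all tested genes. The median size of the change without regard to sign was 0.10 on the log2 scale for the 9 genes and 0.16 for all tested genes. The 95% intervals of all 9, each taken on its own, lay within 1.5-fold in either direction, as did those of 62.3% of tested genes. Those of *Kmt2a*, *Mllt1*, *Aff1* and *Cdk9* also lay within 1.25-fold, as did 27.5% of tested genes. With the replicate block *Psip1* was called lower, 1 of 9 beside 9.43% of tested genes, and 0 of 9 were called higher, beside 11.2%.

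**Figure D1:**
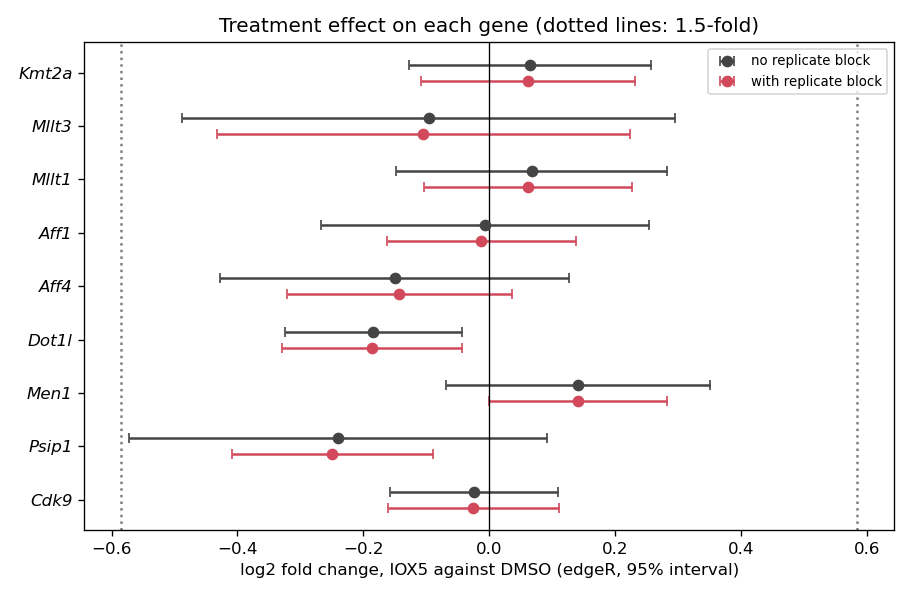
Log2 fold change of IOX5 against DMSO for each gene, with 95% intervals from edgeR without (black) and with (red) the replicate block, and dotted lines at 1.5-fold. All intervals lie inside the dotted lines, and those of *Dot1l* in both fits and of *Psip1* with the block lie below 0.

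The first pair of genes encodes the proteins whose parts are joined in the fusion, which these cells express from the *iMLL-AF9* allele. *Kmt2a* (ENSMUSG00000002028, chr9:44803355-44881296, minus strand) was measured in DMSO at 151.9, 148.2, 159.1 and 171.6 CPM (read counts scaled to library size with TMM factors) in replicates 1 to 4, and in IOX5 at 167.9, 164.5, 184.2 and 143.3 CPM. The IOX5 value exceeded the DMSO value of the same number in 3 of 4 numbers and was below it for number 4, and the groups overlapped. The means were 157.7 ± 10.3 CPM in DMSO and 165.0 ± 16.8 CPM in IOX5 (SD, n = 4), a log2 fold change of 0.07 (SE 0.08, edgeR adjusted p = 0.715). The interval of this difference ran from -0.13 to 0.26.

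*Mllt3* (ENSMUSG00000028496, chr4:87769925-88033364, minus strand), whose product AF9 is the partner in the fusion of these cells, was the least abundant of the 9, with 68 to 109 reads per library. Its values were 6.99, 7.93, 7.96 and 7.72 CPM in DMSO and 8.73, 7.99, 5.32 and 6.59 CPM in IOX5. The IOX5 libraries spread on both sides of the DMSO range, with number 1 above it, number 2 above it by less than 0.1 CPM and numbers 3 and 4 below it. The log2 fold change was -0.10 (SE 0.17, edgeR adjusted p = 0.797), and without IOX5 replicate 3 it was 0.02. Reads from the fusion transcript that map to *Kmt2a* or *Mllt3* cannot be told apart from those of the endogenous genes in counts per gene, and an annotated gene on the opposite strand overlaps part of the *Kmt2a* exons.

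**Figure D2:**
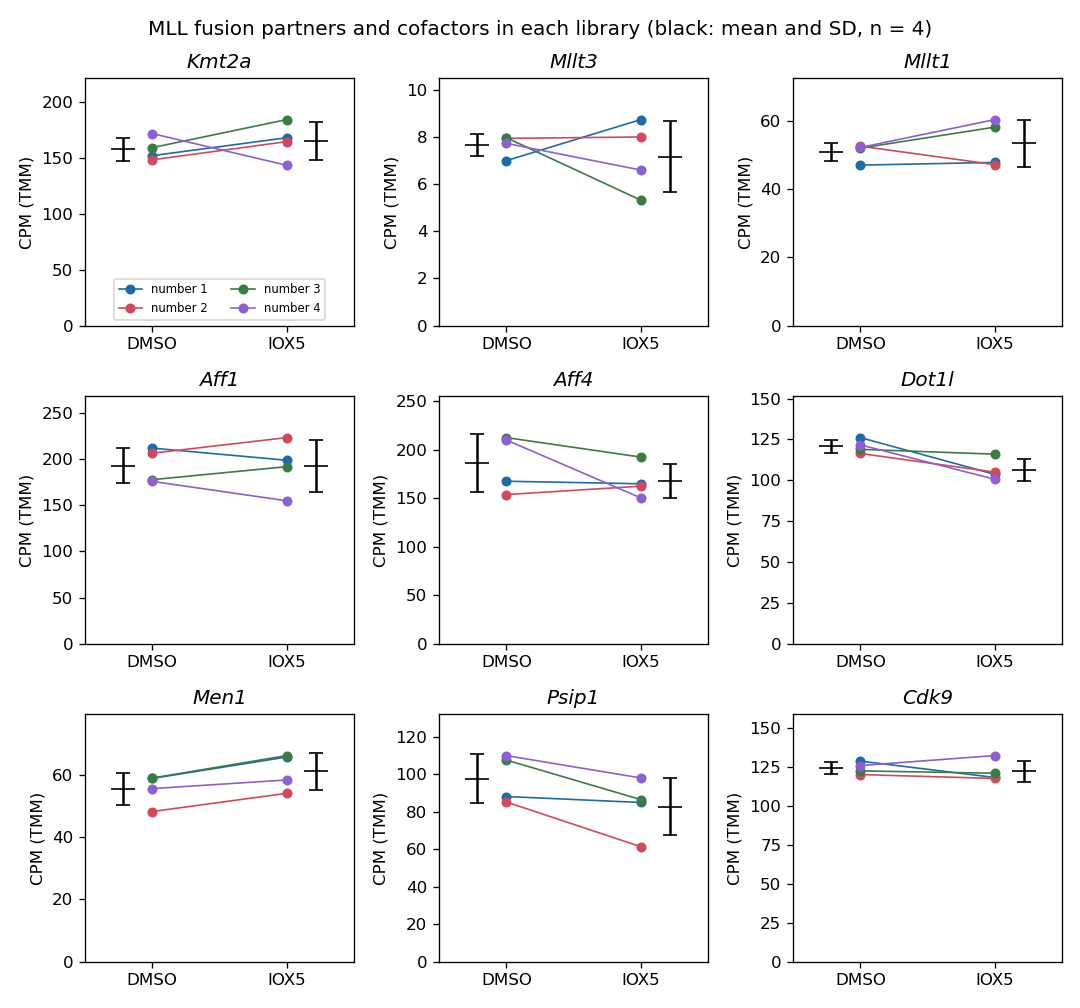
TMM-scaled CPM of each gene in the DMSO and IOX5 library of each replicate number (lines join the same number), with the mean and SD of each group in black. *Dot1l* alone has no overlap between the groups, *Psip1* falls along every line and *Men1* rises along every line.

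*Men1* (ENSMUSG00000024947, chr19:6334979-6340891, plus strand) encodes menin, which binds the amino terminus of MLL, wild-type or fused, and is the target of menin inhibitors. It stood at 58.9, 48.2, 59.0 and 55.6 CPM in DMSO and at 65.7, 54.1, 66.2 and 58.4 CPM in IOX5. It was higher with IOX5 in 4 of 4 numbers, as were 21.3% of tested genes, by 0.07 to 0.17 on the log2 scale, although the groups overlapped. The fold change was 1.10, a log2 fold change of 0.14 (SE 0.09) with an edgeR adjusted p of 0.435, and 0.144 with the block.

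*Psip1* (ENSMUSG00000028484, chr4:83455680-83486459, minus strand) encodes LEDGF, which carries the MLL-menin complex to chromatin marked by H3K36 methylation. Its values were 88.2, 85.2, 107.7 and 110.0 CPM in DMSO and 85.0, 61.4, 86.5 and 98.1 CPM in IOX5. The libraries numbered 3 and 4 were the highest of each group, the groups overlapped, and IOX5 was lower in 4 of 4 numbers, as it was for 19.8% of tested genes. The means were 97.8 ± 12.9 CPM and 82.7 ± 15.4 CPM (SD, n = 4), a log2 fold change of -0.24 (SE 0.15, edgeR adjusted p = 0.398). With the block it was -0.25 (SE 0.07, edgeR adjusted p = 0.031), or 0.841-fold. That call was lost when number 2 or number 3 was left out (adjusted p = 0.0935 and 0.156) and kept without number 1 or 4 (0.0296 and 0.0402), and DESeq2 with the block gave an adjusted p of 0.0564. The differences within numbers were -0.05, -0.47, -0.31 and -0.17 on the log2 scale, so that number 2 had the largest and number 1 the smallest. An annotated gene on the opposite strand overlaps part of the *Psip1* exons, and how strand was handled in counting is not stated.

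The next 4 genes encode members of the super elongation complex. *Aff1* (ENSMUSG00000029313, chr5:103692374-103855322, plus strand), the gene of the AF4 partner, stood at 212.3, 206.7, 178.0 and 176.1 CPM in DMSO and at 199.1, 223.7, 192.1 and 155.1 CPM in IOX5. Libraries numbered 1 and 2 were all above those numbered 3 and 4, in either treatment, and the means of 193.3 and 192.5 CPM in DMSO and IOX5 differed by less than the spread. The log2 fold change was -0.01 (SE 0.12, edgeR adjusted p = 0.984), and its sign changed with the scaling.

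*Aff4* (ENSMUSG00000049470, chr11:53350833-53421830, plus strand), the gene of the scaffold, had the reverse order of numbers in DMSO, with 167.4, 153.7, 212.5 and 209.9 CPM. In IOX5 it was at 164.8, 162.3, 192.4 and 150.3 CPM. The groups overlapped, and the largest difference was that of number 4, at -0.48 on the log2 scale, while number 2 was higher by 0.08. The log2 fold change was -0.15 (SE 0.12, edgeR adjusted p = 0.533), with an interval from -0.43 to 0.13.

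*Mllt1* (ENSMUSG00000024212, chr17:56892611-56935415, minus strand), whose product ENL reads acetylated histone H3, was at 47.0, 52.6, 52.0 and 52.2 CPM in DMSO and at 47.8, 47.2, 58.2 and 60.4 CPM in IOX5. With IOX5 it was above the DMSO range in numbers 3 and 4 and near its lower end in numbers 1 and 2. The log2 fold change was 0.07 (SE 0.10, edgeR adjusted p = 0.736).

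*Cdk9* (ENSMUSG00000009555, chr2:32705784-32713076, minus strand), the P-TEFb kinase, varied least within groups of the 9 genes, with a within-group SD of 0.06 on the log2 scale, below that of all but 4.3% of tested genes. It stood at 128.5, 119.9, 122.3 and 125.7 CPM in DMSO and at 118.0, 117.4, 120.8 and 132.1 CPM in IOX5. The groups overlapped, with a log2 fold change of -0.02 (SE 0.06, edgeR adjusted p = 0.859) and an interval from -0.16 to 0.11.

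*Dot1l* (ENSMUSG00000061589, chr10:80755206-80795461, plus strand) encodes the methyltransferase that MLL fusions recruit and that keeps their target genes active. Its values were 126.1, 116.4, 118.9 and 121.7 CPM in DMSO and 103.6, 105.0, 116.0 and 100.6 CPM in IOX5. Every IOX5 library was below every DMSO library, by a narrow margin between 116.0 and 116.4 CPM, and it was the only one of the 9 without overlap, whereas 8.30% of tested genes were lower without overlap. The means were 120.8 ± 4.16 CPM and 106.3 ± 6.72 CPM (SD, n = 4), a fold change of 0.880. The exact two-sided permutation test over the 70 assignments of samples to groups gave p = 0.0286, the smallest it can give, and 9 genes were tested in this way. Over all tested genes the log2 fold change of -0.18 (SE 0.06) did not pass the correction, with an edgeR adjusted p of 0.147 without and 0.0628 with the block, and it stayed negative in each alternative, between -0.24 and -0.15. The exact permutation p of the other 8 genes ran from 0.171 for *Psip1* to 0.971 for *Aff1*.

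Levels were compared between genes as CPM per kilobase of merged exons. In DMSO the order ran from *Cdk9* (26.9 ± 0.821 CPM per kb, SD, n = 4) through *Aff1* (20.4), *Psip1* (19.2), *Men1* (14.4), *Dot1l* (13.9), *Aff4* (13.8), *Mllt1* (13.0) and *Kmt2a* (9.46 ± 0.620) to *Mllt3* (0.637 ± 0.0379). *Aff1* and *Psip1* overlapped in DMSO, as did each neighbouring pair in the run from *Men1* to *Mllt1*, so that their order is not separated by the spread. *Cdk9* lay above *Aff1*, *Mllt1* above *Kmt2a* and *Kmt2a* above *Mllt3* in 8 of 8 libraries. All but *Mllt3* were above the median of tested genes, 7.11 CPM per kb, and *Mllt3* was at the level below which 10.1% of tested genes lay. In IOX5 the order was the same except that *Mllt1* moved to place 5 and *Dot1l* to place 7, with *Aff4* between them.

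**Figure D3:**
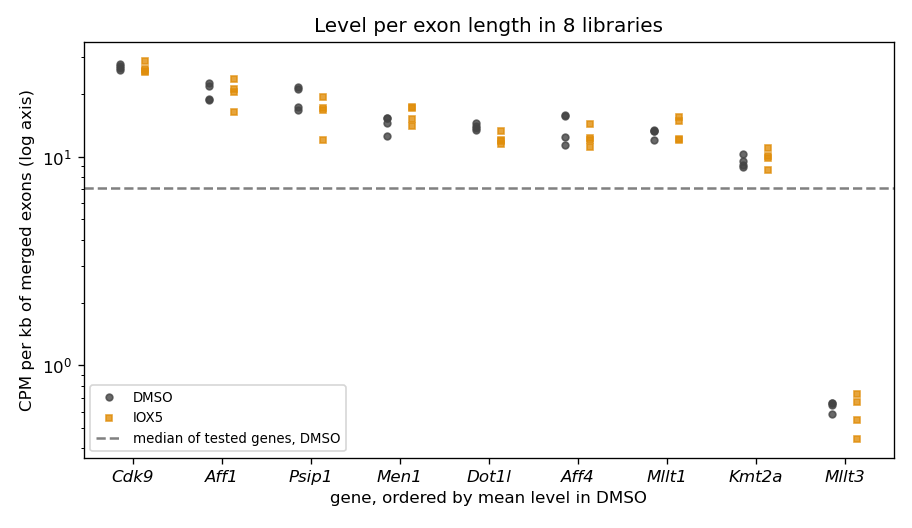
Level of each gene per kilobase of merged exons on a log axis, in 4 DMSO (circles) and 4 IOX5 (squares) libraries, with the median of tested genes as a dashed line. *Mllt3* lies far below the line and the other 8 genes above it.

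Ratios within a library compared related genes. For *Mllt3* over *Mllt1*, the AF9 and ENL genes, the ratio of levels per kb was 0.0495, 0.0501, 0.0508 and 0.0491 in DMSO, a narrow range. In IOX5 it was 0.0605 and 0.0562 for numbers 1 and 2 and 0.0306 and 0.0364 for numbers 3 and 4, above and below all DMSO libraries respectively. The SD of the log2 ratio was 0.02 in DMSO and 0.48 in IOX5, and the means differed by -0.18 (exact two-sided permutation p = 0.486, 0.600 after adjustment over 4 ratios). *Mllt3* had only 68 to 109 reads per library, so that counting limits this ratio in both groups. Whether its spread differs between the groups was not tested. For *Kmt2a* over *Kmt2b*, the closest paralog of MLL, the mean ratio was 0.878 in DMSO and 1.005 in IOX5, higher in 4 of 4 numbers, with overlapping groups (exact permutation p = 0.0857, adjusted p = 0.343). *Aff1* over *Aff4* was 1.80, 1.91, 1.19 and 1.19 in DMSO and 1.72, 1.96, 1.42 and 1.47 in IOX5, with numbers 1 and 2 above numbers 3 and 4 in both treatments (exact permutation p = 0.600). *Kmt2a* over *Men1* changed by -0.08 on the log2 scale (exact permutation p = 0.429), lower with IOX5 in 3 of 4 numbers.

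**Figure D4:**
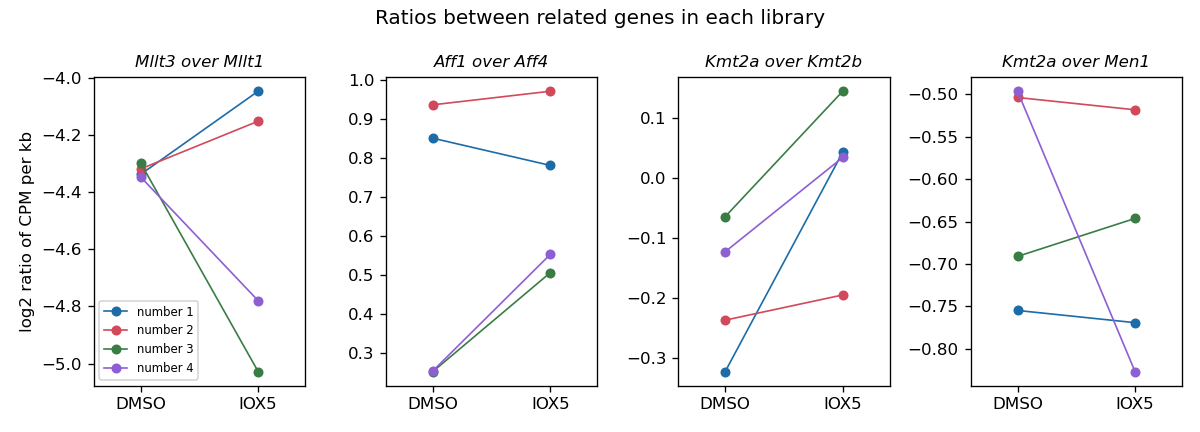
Log2 ratio of levels per kb for 4 pairs of related genes, with DMSO and IOX5 libraries of a replicate number joined. *Mllt3* over *Mllt1* fans out in IOX5, from nearly equal DMSO values, with only 68 to 109 *Mllt3* reads per library. *Kmt2a* over *Kmt2b* rises along all 4 lines.

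The genes around these 9 were taken from 10 lists of their complexes and targets, of which 75 tested genes are not among the 9. Without the block none of the 75 was called by edgeR, and the smallest adjusted p was 0.0517, for *Crebbp*. At an unadjusted p under 0.05 there were 18, beside 20.2% of tested genes. DESeq2 called 1 higher and 4 lower, beside 3.90% and 4.90% of the genes it tested. With the block 4 rose and 11 fell, 15 of 75 in all, beside 20.7% of tested genes. Their median log2 fold change was -0.06, and 12 were lower and 1 higher without overlap between the groups, beside 8.30% and 5.98% of tested genes. Of these 15 calls, those of *Crebbp*, *Aff3*, *Mef2c* and *Myb* were kept whichever number was left out, and the other 11 were lost without at least 1 number. DESeq2 with the block did not call *Setd1a*, *Leo1*, *Cdk7* and *Pbx3* (adjusted p = 0.0745, 0.0852, 0.1001 and 0.1445). *Ell3* and *Eaf2* did not pass the filter.

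Of the 9 genes of the MLL complex core, 6 had positive and 3 negative log2 fold changes, beside 6550 and 5855 of all 12405 tested genes. With the block *Psip1* alone was called. The genes of the core subunits WDR5, RBBP5, ASH2L and DPY30 did not pass the test. Another list of 7 tested genes held other H3K4 methyltransferases and related proteins. Of these, *Setd1a* fell with the block, from 49.9 ± 2.42 to 41.4 ± 3.38 CPM. Its log2 fold change was -0.27 (edgeR adjusted p = 0.0279 with and 0.0970 without the block). An annotated gene on the same strand covers much of *Setd1a*. Of the 14 other fusion partner genes, *Crebbp*, a histone acetyltransferase gene, fell with the block, from 53.3 ± 2.52 to 39.2 ± 5.03 CPM. All 4 IOX5 libraries, at 35.9, 46.2, 39.7 and 35.2 CPM, were below the DMSO libraries, at 53.2, 53.6, 50.0 and 56.2 CPM. Its log2 fold change of -0.44 had an edgeR adjusted p of 0.0517 without and 0.00292 with the block, and DESeq2 gave 0.00264 without it.

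Among the 12 tested genes of the super elongation complex and P-TEFb, *Aff3*, a paralog of *Aff1*, rose with the block. It differed between replicate numbers, with 68.5, 6.92, 33.0 and 33.0 CPM in DMSO and 91.0, 15.3, 49.2 and 39.1 CPM in IOX5, and was higher with IOX5 in 4 of 4 numbers (log2 fold change with the block 0.52, edgeR adjusted p = 0.00475). Without the block its adjusted p was 0.735. Of the 6 P-TEFb regulators, *Larp7*, which stabilizes the 7SK RNA that holds P-TEFb inactive, fell with the block from 76.3 ± 7.64 to 61.8 ± 13.3 CPM (edgeR adjusted p = 0.0350 with and 0.271 without the block). It was lower in 3 of 4 numbers and higher for number 4. *Hexim2*, an inhibitor of P-TEFb, had the list's largest change, from 4.10 ± 0.305 to 2.95 ± 0.432 CPM with no overlap, and did not pass the test (edgeR adjusted p = 0.178 without and 0.0758 with the block).

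Of the 9 genes of the DOT1L complex and H2B ubiquitination, *Ube2a*, a ubiquitin-conjugating enzyme for H2B, rose with the block, from 90.2 ± 4.33 to 108.5 ± 6.75 CPM with no overlap (log2 fold change 0.27, edgeR adjusted p = 0.00925 with and 0.0709 without the block). Of the 6 genes of the PAF1 complex, which travels with elongating polymerase, *Leo1* and *Cdc73* fell with the block and did not overlap between groups, beside 9.43% of tested genes called lower and 8.30% lower without overlap. *Leo1* went from 58.6 ± 3.68 to 49.5 ± 3.85 CPM (edgeR adjusted p = 0.0289 with and 0.124 without the block) and *Cdc73* from 92.8 ± 2.11 to 78.3 ± 4.82 CPM (0.0184 and 0.0697). Of the 14 pausing and elongation factors, 10 had negative log2 fold changes, beside 5855 of all 12405 tested genes. *Supt16*, of the histone chaperone FACT, and *Cdk12*, a kinase of the polymerase, fell with the block by 0.26 each on the log2 scale (edgeR adjusted p = 0.0194 and 0.0229), and *Cdk7*, the kinase of TFIIH, rose by 0.22 (edgeR adjusted p = 0.0386). A list drawn up for menin partners held 4 genes, that of JunD included. Of these, *Kat7*, a histone acetyltransferase gene, fell with the block from 152.3 ± 1.90 to 126.7 ± 11.2 CPM (edgeR adjusted p = 0.0139 with and 0.0805 without the block).

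**Figure D5:**
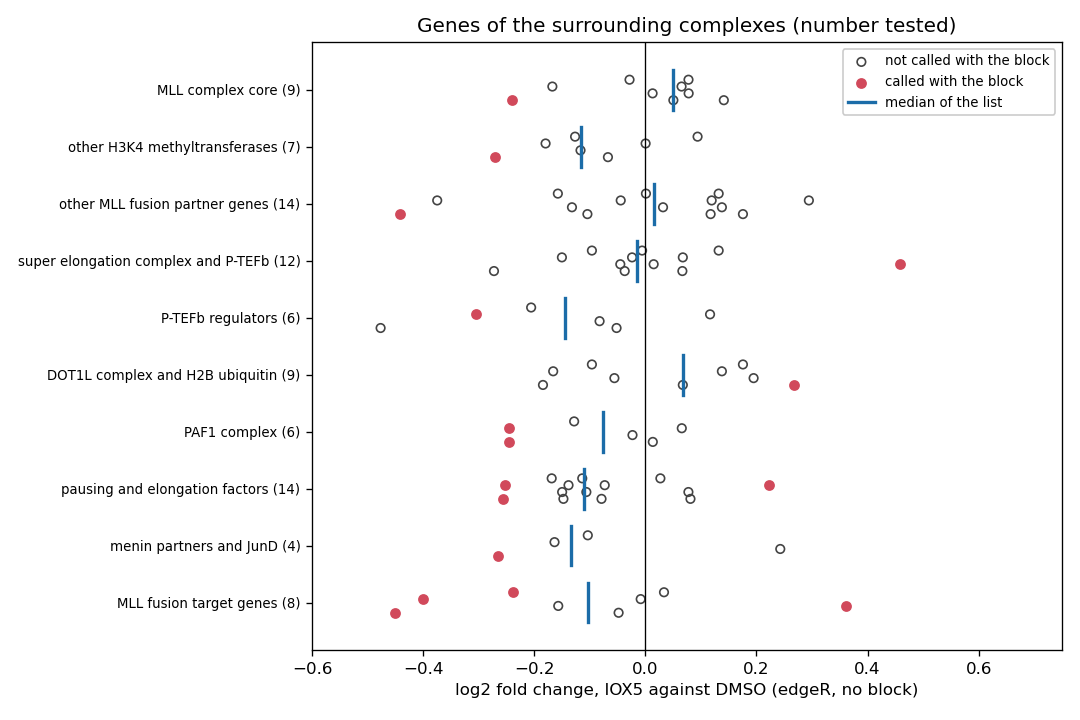
Log2 fold change without the block of each tested gene in the 10 lists, with red for genes called with the replicate block and a blue bar at the median of each list. In each list 1 to 4 genes are called with the block. Over all lists these are 16 of 84 tested genes, *Psip1* included, beside 20.7% of all tested genes.

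Of 8 genes that MLL fusions activate, 3 fell and 1 rose with the block, beside 9.43% and 11.2% of tested genes. *Mef2c* fell by 0.48 on the log2 scale, *Hoxa7* fell by 0.24 and *Pbx3* fell by 0.41 (edgeR adjusted p = 0.00129, 0.0205 and 0.0428), and *Myb* rose by 0.36 (edgeR adjusted p = 0.00284). None of them passed without the block, and *Pbx3* stood between 6.56 and 19.5 CPM in DMSO, with numbers 1 and 2 the highest. *Hoxa9*, *Hoxa10*, *Meis1* and *Cdk6*, of the same list, were not called in either fit. Their log2 fold changes with the block were -0.05, -0.03, 0.03 and -0.16 (edgeR adjusted p = 0.623, 0.782, 0.761 and 0.111).

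The genes most like *Kmt2a* over the 8 libraries, among 8562 genes with at least its within-group SD, were *Trp53bp1*, *Hook3* and *Pik3ca*. Their log2 CPM, centred on each gene's mean, differed from that of *Kmt2a* by 0.04, 0.05 and 0.05 on average, while *Kmt2a* itself deviated by 0.10 from its mean. For *Mllt3*, among 4602 genes, they were *Gm10509*, *Tsacc* and *Rnd1*, with mean differences of 0.08, 0.10 and 0.10 beside a mean deviation of 0.17. Their mean CPM in DMSO and IOX5 was 2.54 and 2.33, 0.978 and 1.02, and 16.0 and 13.5. At the levels of *Gm10509* and *Tsacc* counting limits the comparison. The likeness is a description over 8 libraries that share their depth and numbering.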

How the data were processed

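Gene expression was measured by RNA-seq in 8 samples, grouped as DMSO or IOX5 by their labels. Per the methods, the authors selected poly(A) RNA, prepared directional libraries, sequenced single-end reads and mapped them to GRCm38. The deposited values are raw read counts per Ensembl gene. The submitters' processing notes name cutadapt 1.18, HISAT2 2.2.1 and HTSeq 2.0.1, and the strand setting of the counting is not given in the sources used here. Of 54838 genes, 54809 matched GENCODE M21, which gave names, coordinates and merged exon lengths. Summary lines of unassigned reads, between 20.6% and 22.6% of reads, were left out. At these depths the 9 genes had between 68 and 3007 reads per library.

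R 4.3.3 with edgeR 4.0.16 was used. The function filterByExpr kept 12405 genes, TMM factors ran from 0.988 to 1.03, and the quasi-likelihood test was run on the counts with Benjamini-Hochberg adjustment over all genes tested. A call is an adjusted p under 0.05. The 95% intervals use the standard error implied by the F statistic. Log2 CPM for permutation tests and ratios used a prior count of 2.

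Deviations from group means correlated between same-numbered samples (0.758, 0.744, 0.732 and 0.636 in the order of the numbers), and the largest correlation of samples with unlike numbers was 0.685. This comes from the data, since the labels do not say what a number marks. Values with the replicate number as a block are given where a call changes. No libraries of a group agreed within sampling noise, with at least 2.06 for chi-square per degree of freedom. That lowest value was of DMSO numbers 3 and 4, beside 13.0 to 20.7 for the other DMSO pairs. IOX5 numbers 3 and 4 had 8.50, beside 17.0 to 37.5 for the other IOX5 pairs. Whether numbers 3 and 4 are independent samples is not stated in the sources.

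Named genes are the 9, every gene of the lists called with or without the block, the gene with the largest change of each list, and the 3 most like *Kmt2a* and *Mllt3*. The MLL fusion targets that were not called are named beside the called ones. The genes, lists and rule were chosen with earlier results of these data known. Alternatives were DESeq2 1.42.0, limma 3.58.1 (voom), other scaling factors, other filters, thinned counts, another threshold, and samples left out. The steps were tested on simulated data.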

Additional observations from a re-analysis of the deposited data

Results flagged for a closer look

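The value of the *Mllt1* gene in DMSO replicate 1, 47.0 CPM, stood apart from the other 3 DMSO libraries, which lay between 52.0 and 52.6 CPM, with a gap of 0.896 of the group's range beside a critical value of 0.829 (Dixon's test at 95%). *Larp7* in IOX5 replicate 4, at 81.4 CPM, stood apart from the other 3 IOX5 libraries, which lay between 52.9 and 57.8 CPM, with a gap of 0.831 of the range. These are 2 of 50 groups examined, and chance alone flags about 1 in 20.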

How the results depend on the processing

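None of the 9 genes was called higher in any alternative. The call of *Psip1* as lower, 1 gene, was made with the replicate block, with the block and upper-quartile factors, and with the block without number 1 or 4. With the block no other call among the 9 changed. Directions changed only for genes that were not called in either setting. The log2 fold change of *Aff1* became 0.0047 with RLE factors, 0.0072 with at least 10 counts in every sample, 0.0468 with voom, 0.0107 with upper-quartile factors, 0.0051 with these and the block, and 0.0083 and 0.0467 with the block without number 1 or 4. With 1 sample left out it ran from -0.0856 to 0.0837. That of *Mllt3* became 0.0405 with the block without number 3 and ran from -0.207 to 0.0228 with 1 sample left out. That of *Cdk9* became 0.0019 with the block without number 1, and that of *Aff3* ran from -0.0353 to 1.002 with 1 sample left out. The median of the 9 genes lay between -0.09 and 0.002. Other scaling factors moved the CPM of the 9 genes by at most 1.79%.

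Over all genes, DESeq2 called 433 higher and 544 lower, voom 426 and 610, an adjusted p under 0.1 gave 332 and 486, and without the filter 73 were lower. With the block 1394 were higher and 1170 lower, with upper-quartile factors and the block 1598 and 975, and with DESeq2 and the block 903 and 807. With the block and 1 number left out, in the order of the numbers, 994, 1119, 642 and 1355 were higher and 650, 1016, 403 and 1058 lower. Leaving out 1 sample without the block gave 0 to 130 higher and 0 to 333 lower. No gene was called when DMSO replicate 3, DMSO replicate 4 or IOX5 replicate 3 was left out (1969, 1846 and 2111 had an unadjusted p under 0.05). Leaving out DMSO replicate 1 gave 7 and 4, DMSO replicate 2 gave 10 and 7, IOX5 replicate 1 gave 36 and 35, IOX5 replicate 2 gave 53 and 76, and IOX5 replicate 4 gave 130 and 333. Of the 75 surrounding genes, DESeq2 called 1 higher and 4 lower, voom 1 and 3, an adjusted p under 0.1 gave 1 and 4, the block 4 and 11, upper-quartile factors with the block 6 and 11, and DESeq2 with the block 3 and 8. With the block and 1 number left out, 2 to 4 were higher and 3 to 13 lower. Leaving out 1 sample gave 0 or 1 lower and 0 higher. The cause of these differences was not tested. The fits with the block in DESeq2 and with upper-quartile factors were chosen after seeing the data. With 68 to 109 reads per library, counting limits *Mllt3* more than the other 8 genes.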
